A study of Chlorella vulgaris with 6 samples.

Results

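Chlorella vulgaris is a unicellular green alga that is grown for the oil it stores. The 22 transcripts described here stood higher in both of its high-lipid mutants, EMS-25 and UV-715, than in the wild type. They were chosen from the deposited expression values of 18600 assembled features by 2 conditions: a mean over the 6 libraries of 30 or more, which 4891 features met, and a lowest mutant library at least 1.5 times the higher wild-type library. A 23rd feature met these conditions only because it was listed at 0 in both UV-715 and both wild-type libraries, with values of 256 and 209.7 in the EMS-25 pair, and it is left out of the 22. The mirror image of the rule, lower in both mutants, was met by 29 features. The values that chose the 22 transcripts are those of each mutant against wild type, so these are given as a description with no test. The comparison that is tested is that of the mutants with each other, which draws on the same mutant libraries.

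EMS-25 is labelled an EMS mutant (2 libraries), UV-715 a UV mutant (2 libraries), and the wild type is the strain SAG 211-12 (2 libraries), which is also the strain given for both mutants. Ultraviolet light of 254 nm was used for the UV mutagenesis, and single colonies were picked from the plates. No dose is given for EMS (ethyl methanesulfonate, a chemical mutagen that alkylates DNA), and the labels do not name the mutated loci of either strain, so the mutations could not be checked in these data and each mutant is a single isolate. RNA was taken from cultures of 14 days in stationary phase at an optical density of 5, enriched for polyadenylated transcripts and sequenced as paired reads of 75 bp. The labels speak of biological replicates without saying that cultures were grown separately. The p-values below then measure only the spread between these libraries, and that spread may be technical.

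Green algae make fatty acids in the chloroplast, where acetyl-CoA carboxylase supplies the building blocks, and acyltransferases then join them to glycerol to form triacylglycerol, the oil kept in lipid droplets. In stationary phase, when nutrients run down and division slows, Chlorella directs fixed carbon into starch and oil. The deposited table pairs its assembly IDs with no gene names, so it is not known here whether any of the 22 transcripts serves one of these steps. They are numbered M1 to M22 by their mean level.

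The values are an expression signal that the authors scaled between libraries, and the library sums lay between 970974 and 1029717. The absolute depth is unknown. The spacing of low values put the relative depth at 4.01 and 1.62 in EMS-25, 4.32 and 2.05 in UV-715 and 4.1 and 1.0 in wild type (replicates 1 and 2, with wild type replicate 2 set to 1.0), and the shallowest library, wild type replicate 2, listed the most features at 0 (4177). In every strain replicate 1 was the deeper library, so the spread between replicates always sets a deeper library against a shallower one. A level here is a share of a bulk RNA sample. More RNA of a transcript in every cell and more cells that hold it therefore cannot be told apart.

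The 22 transcripts ran from the upper range of expression down to the limit set by the rule. Their means lay between 30.7 and 1268 with a median of 87.4, against a median of 65.7 over every feature that met the limit of 30. At 300 or more stood 7 of the 22 (31.8%), against 9.61% of the features that met the limit. Together they held 0.686% and 0.722% of the summed signal in the EMS-25 libraries and 0.867% and 0.839% in UV-715, against 0.238% and 0.233% in wild type. Without M7, whose EMS-25 replicates stood far apart, these shares were 0.656% and 0.649% in the EMS-25 libraries and 0.787% and 0.781% in UV-715, against 0.238% and 0.232% in wild type.

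**Figure D1:**
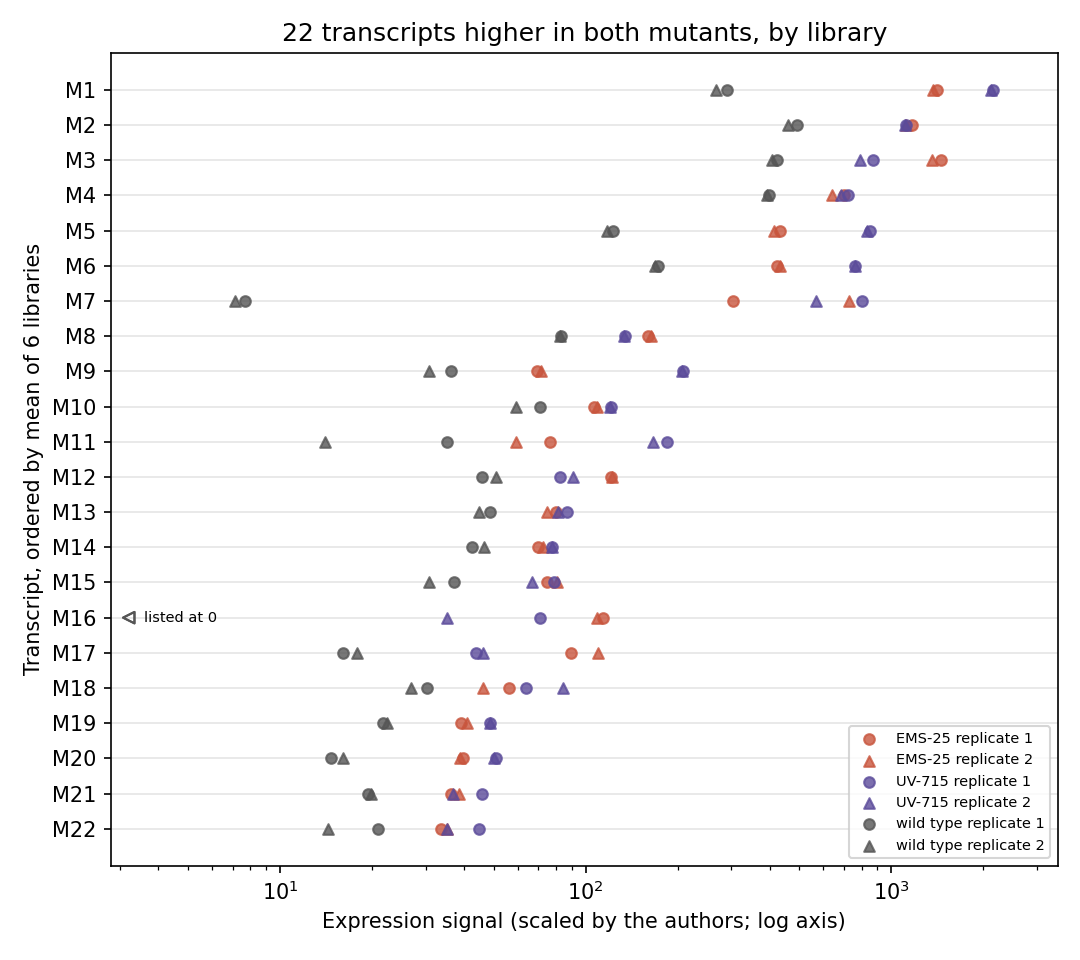
Expression signal (horizontal log axis, scaled by the authors) of the 22 transcripts in each of the 6 libraries, ordered down the page by mean level. Circles are replicate 1 and triangles replicate 2. The open marker at the left edge stands for the value 0 of M16 in both wild-type libraries. The mutants lie right of wild type in every row because the rule asked for it, while the order of EMS-25 (red) and UV-715 (violet) changes from row to row.

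Over the 21 transcripts with a value above 0 in wild type, the mean of EMS-25 was 1.6-fold to 69.5-fold that of wild type (median 2.29-fold), and the mean of UV-715 1.63-fold to 92.5-fold (median 2.27-fold). M7 gave both upper ends. The next highest folds were 5.87 in the EMS-25 libraries and 7.65 in UV-715. Both mutants reached at least 2-fold for 12 of the 22, with M16, which was listed at 0 in wild type, counted among them. The ratio that the rule used, lowest mutant library over higher wild-type library, was under 2 for 14 of the 22. Its median was 1.79 over the 21 with a value above 0 in wild type.

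The threshold divided features with nearly the same values. Just inside, M14 had 70.0 and 72.7 in the EMS-25 libraries and 77.7 and 77.6 in UV-715, against 42.6 and 46.6 in wild type, a ratio of 1.5. Just outside, a feature with 46.9 and 45.4 in the EMS-25 libraries and 49.3 and 44.7 in UV-715, against 29.8 and 29.0 in wild type, had a ratio of 1.498. Near the limit on level, M22 had a mean of 30.7 and the highest feature under the limit with a sufficient ratio had 29.7. The 22 are therefore a section of a continuous range. Both wild-type libraries limit the number. With wild type replicate 1 left out 111 features met the rule, and with wild type replicate 2 left out 39 did. The 22 had to be among them, because their wild-type values lie lowest. Leaving one out can only raise their mean and can only keep or raise their ratio. Their presence there is therefore no check on the group.

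The replicates of a strain lay close together for most of the 22. The higher replicate was a median of 1.05 times the lower in EMS-25, 1.06 times in UV-715 and 1.08 times in wild type. It was more than 1.2 times the lower for 4 transcripts in EMS-25, 5 in UV-715 and 3 of 21 in wild type. The rule favours close replicates, since it compares the lowest mutant library with the higher wild-type library. The median SE of the difference between the mutants was 0.095 over the 22, against 0.113 over the 4891 features that met the limit on level. M7, M11 and M16 had the widest gaps, and they are described with that spread beside them.

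For 7 of the 22 transcripts the level differed between the mutants by the test, and for 15 no difference passed. A difference between EMS-25 and UV-715 was tested with limma on the log2 of the signal plus 1. The rule did not use this difference itself. It did use the lowest of the same mutant libraries, so the test is not independent of the choice. The test covered the 18096 features that reached 1 in 2 or more libraries, and a call means a Benjamini-Hochberg adjusted p below 0.05. Of the 22, 3 were higher in the EMS-25 libraries and 4 were lower, and 15 did not pass. Without the intensity trend in the fit, 1 of the 22 was called (M9, lower in EMS-25), and the calls over all features numbered 252 where the fit with the trend gave 841. Leaving out a mutant library gave 5 or 6 calls among the 22 and 245 to 391 over all features (300 without replicate 1 of EMS-25, 262 without its replicate 2, 391 without replicate 1 of UV-715 and 245 without its replicate 2). With the trend and all libraries, the calls are 13.6% and 18.2% of the 22, against 2.77% and 1.88% of all features tested, and 31.8% in all, against 4.65%. Calls depend on level. Among features whose mean reached 30, 8.51% were higher in EMS-25 by the test and 5.93% lower (14.4% in all). Of the 7 transcripts of the group at 300 or more, 4 were called (57.1%), against 31.1% of all features at that level. With so few transcripts, and with members chosen for high mutant values, these shares are a description.

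The median difference, EMS-25 minus UV-715, was -0.14 on the log2 scale over the 22, against -0.01 over all features tested. It was -0.22 when UV-715 replicate 2 was left out (-0.06 over all features) and -0.09 when UV-715 replicate 1 was (0.01 over all features). The median size of the difference, sign aside, was 0.42 over the 22 and 0.22 over the 4891 features that met the limit on level. Both EMS-25 libraries lay below both UV-715 libraries for 12 of the 22 (54.5%), against 32.7% of those 4891. Both lay above for 5 (22.7%), against 35.7%. The remaining 5 overlapped.

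**Figure D2:**
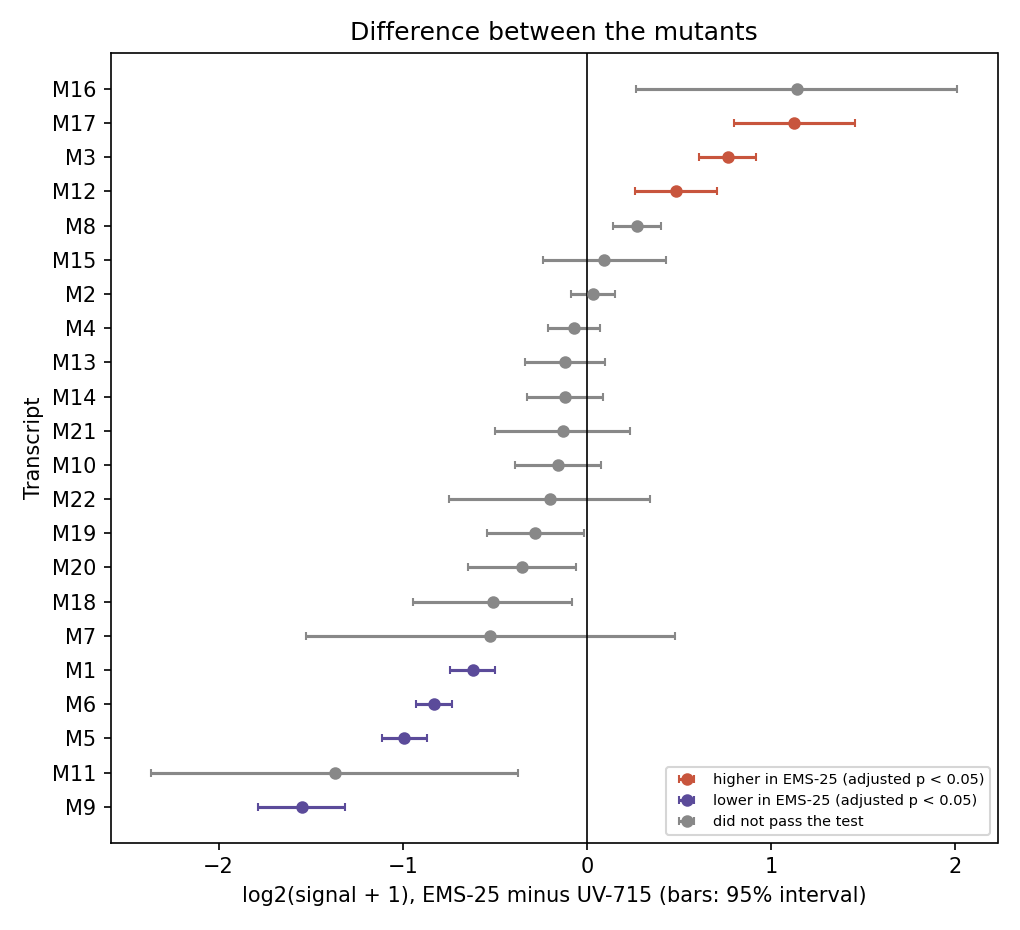
Difference between the mutants for each of the 22 transcripts, EMS-25 minus UV-715 on the scale of log2(signal + 1), with the 95% interval from limma as bars. M17, M3 and M12 (red) passed the test as higher in EMS-25, and M1, M6, M5 and M9 (violet) as lower. The widest intervals belong to M7, M11 and M16.

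The 4 transcripts that were lower in EMS-25 than in UV-715 include the most abundant of the group. M1, TRINITY_DN5473_c0_g1, had 1409 and 1367 in the EMS-25 libraries and 2150.2 and 2121 in UV-715, against 290.2 and 268 in wild type. EMS-25 stood 4.98-fold and UV-715 7.65-fold above wild type, and the mutants' libraries did not overlap. The difference between the mutants was -0.62 (SE 0.05, adjusted p 0.00336 by limma).

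M5, TRINITY_DN7081_c0_g1, had 433 and 414 in the EMS-25 libraries and 851 and 833 in UV-715, against 123 and 117 in wild type. Its level in EMS-25 was 0.503 times that in UV-715, a log2 difference of -0.99 (SE 0.05, adjusted p 0.001 by limma). M6 followed the same order, with 423 and 433 in the EMS-25 libraries and 761 and 760.4 in UV-715, against 173 and 168 in wild type (log2 difference -0.83, SE 0.04, adjusted p 0.001 by limma). In both, the EMS-25 libraries lay below those of UV-715 with no overlap, while the place of both mutants above wild type was required by the rule.

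M9, TRINITY_DN36_c0_g1, had the widest called difference between the mutants. It had 69.4 and 71.2 in the EMS-25 libraries and 209 and 206 in UV-715, against 36.3 and 30.6 in wild type, so that EMS-25 stood 2.1-fold and UV-715 6.21-fold above wild type. The difference between the mutants was -1.55 (SE 0.10, adjusted p 0.00198 by limma). Without the intensity trend in the limma fit, M9 alone of the 7 kept its call (adjusted p 0.0395), while M1, M5 and M6 stood at adjusted p 0.155, 0.0676 and 0.0853.

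The 3 transcripts that were higher in EMS-25 than in UV-715 covered a wide range of level. M3, TRINITY_DN2791_c0_g1, had 1460.0 and 1362 in the EMS-25 libraries and 869 and 793 in UV-715, against 423 and 407 in wild type. It was the most abundant of the 22 in EMS-25 by its mean, at 1411 ± 69.6, ahead of M1 at 1388 ± 29.7 (SD, n = 2), a gap smaller than the spread between the replicates of M3. The difference between the mutants was 0.76 (SE 0.06, adjusted p 0.00337 by limma; 0.119 without the intensity trend).

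M17, TRINITY_DN3877_c0_g1, had 89.7 and 109.5 in the EMS-25 libraries and 43.7 and 46.0 in UV-715, against 16.1 and 17.8 in wild type. EMS-25 stood 5.87-fold and UV-715 2.64-fold above wild type, and the difference between the mutants was 1.13 (SE 0.13, adjusted p 0.0107 by limma). The call was lost without EMS-25 replicate 2 (0.98, adjusted p 0.0764), without UV-715 replicate 1 (1.09, adjusted p 0.0692), without UV-715 replicate 2 (1.16, adjusted p 0.0727) and without the intensity trend (adjusted p 0.0866).

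M12 had 121 and 122 in the EMS-25 libraries and 82.2 and 91.2 in UV-715, against 45.8 and 51.0 in wild type. Its difference of 0.48 (SE 0.09) lay at the threshold, with an adjusted p of 0.0463 by limma. Leaving out any of the 6 libraries ended the call, with differences between 0.41 and 0.56 and adjusted p between 0.0541 and 0.227 by limma. It was also lost with libraries set to the same sum (adjusted p 0.0807), with no filter on low values (0.0519) and without the intensity trend (0.256).

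**Figure D3:**
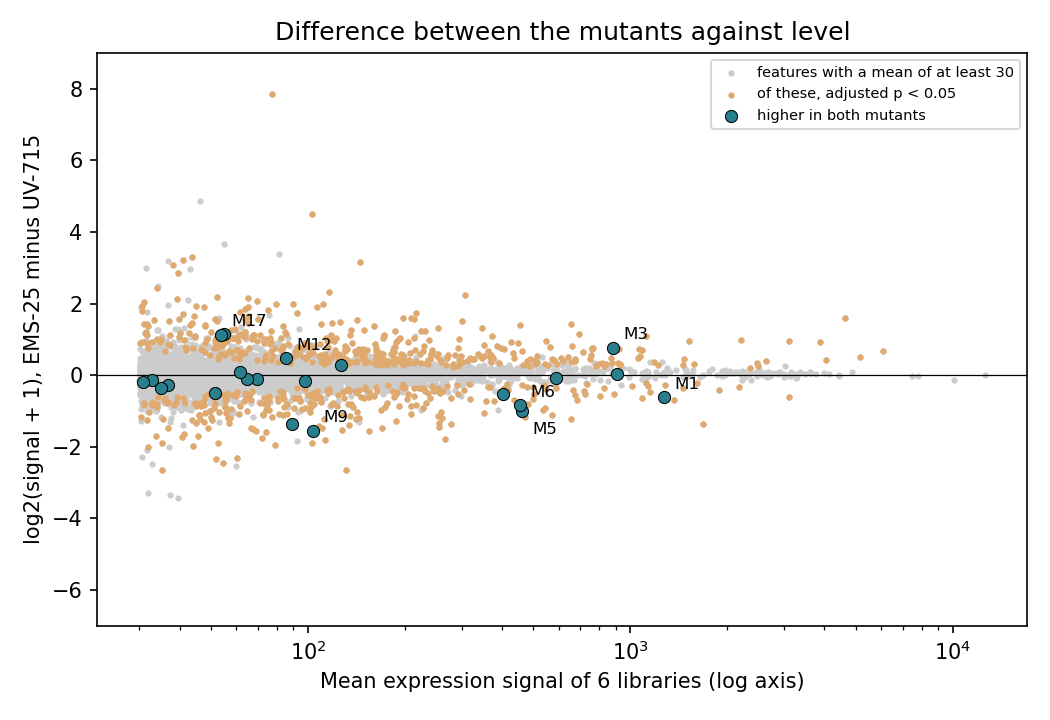
Difference between the mutants (vertical axis, EMS-25 minus UV-715 on the log2(signal + 1) scale) against the mean signal of the 6 libraries (log axis) for the 4891 features whose mean reached 30. Grey points did not pass the test, tan points did, and the 22 transcripts are drawn in blue-green, with the 7 that passed labelled. M9 lies lowest of the labelled points and M17 highest.

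Several transcripts had values close together in both mutants. M2 had 1166 and 1116 in the EMS-25 libraries and 1117 and 1112 in UV-715, against 490.3 and 459.8 in wild type. M4 had 698 and 642 in the EMS-25 libraries and 724 and 683 in UV-715, against 397 and 393 in wild type. The intervals of their differences between the mutants were among the narrowest of the 15 that did not pass: for M2 the difference was 0.03 with a 95% interval from -0.08 to 0.15, and for M4 it was -0.07 with an interval from -0.21 to 0.07. The libraries of the mutants overlapped for both.

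Other transcripts with small differences stood at intermediate levels. M10 had 107 and 109 in the EMS-25 libraries and 121 and 120.0 in UV-715, against 70.7 and 59.3 in wild type, with an interval of the difference from -0.39 to 0.08. M13 had 80.1 and 74.8 in the EMS-25 libraries and 87.1 and 81.3 in UV-715, against 48.5 and 44.7 in wild type (interval -0.34 to 0.10). M14, whose values stand above, had an interval from -0.33 to 0.09. For M10, M13 and M14 both EMS-25 libraries lay below both UV-715 libraries, by amounts that the test did not resolve. M15 had 74.6 and 80.3 in the EMS-25 libraries and 78.8 and 66.6 in UV-715, against 37.1 and 30.6 in wild type (interval -0.24 to 0.43), and M21 had 36.2 and 38.6 in the EMS-25 libraries and 45.7 and 36.8 in UV-715, against 19.4 and 19.9 in wild type (interval -0.50 to 0.23). Both of these overlapped between the mutants.

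Of the 15 transcripts that did not pass, 6 had an interval that left out 0, with an unadjusted p under 0.05. M8 was nearest to the threshold: it had 161 and 164 in the EMS-25 libraries and 135 and 134 in UV-715, against 83.0 and 82.3 in wild type (difference 0.27, interval 0.14 to 0.40, adjusted p 0.0539 by limma). It passed with a pseudocount of 0.1 (adjusted p 0.0437), with no filter on low values (0.0251) and among features with a mean of at least 30 alone (0.0264).

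M18, M19 and M20 were lower in EMS-25 among these, as was M11, which is described below. M18 had 56.3 and 46.3 in the EMS-25 libraries and 63.6 and 84.4 in UV-715, against 30.2 and 26.9 in wild type (interval -0.95 to -0.08, adjusted p 0.193 by limma). M19 had 39.0 and 40.8 in the EMS-25 libraries and 48.7 and 48.7 in UV-715, against 21.7 and 22.4 in wild type (interval -0.55 to -0.02, adjusted p 0.237). M20 had 39.7 and 39.0 in the EMS-25 libraries and 51.0 and 50.0 in UV-715, against 14.7 and 16.02 in wild type (interval -0.65 to -0.06, adjusted p 0.190). EMS-25 lay below UV-715 in both libraries of each. M22, with the lowest mean of the group, had 33.8 and 35.2 in the EMS-25 libraries and 44.9 and 35.3 in UV-715, against 21.0 and 14.4 in wild type (interval -0.75 to 0.34).

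M11 and M16 complete the 6. The replicates of M16 lay far apart in UV-715, and those of M11 in wild type and, less so, in EMS-25 (1.3-fold). M11 had 76.6 and 59.0 in the EMS-25 libraries and 185 and 166 in UV-715, against 35.3 and 14.1 in wild type, where the replicates differed 2.51-fold. Its difference between the mutants was -1.37 (SE 0.40, interval -2.36 to -0.37, adjusted p 0.143 by limma). Since wild type enters the shared estimate of the spread, the call depended on that pair: the adjusted p was 0.0212 without wild type replicate 1, 0.0204 without wild type replicate 2 and 0.0191 in a fit of the mutants alone, with the same difference.

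M16 was listed at 0 in both wild-type libraries and is the only transcript of the 22 with a 0 in any library. It had 114 and 109 in the EMS-25 libraries and 71.1 and 35.1 in UV-715, where the replicates differed 2.03-fold, and the difference between the mutants was 1.14 (SE 0.35, interval 0.27 to 2.01, adjusted p 0.160 by limma). No fold over wild type is given for it.

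The IDs have the layout of the Trinity assembler and give a cluster, then a component, then a gene. Features of the same component can share reads that the estimation divided among them. The 22 transcripts came from 22 different clusters. Alone in their cluster were 10 (45.5%), against 41.6% of the 4891 features at or above the limit on level, and 6 shared a component with another feature (27.3%, against 33.3%). Of the 7 transcripts that differed between the mutants, 4 (M1, M3, M5 and M9) stood alone in their cluster. No other feature of their clusters is in the table.

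The component was also summed for the 6 that had a sibling. None of the 6 sums reached the ratio of 1.5, but any sibling that rises less than the transcript lowers this ratio. In 5 of the 6 all mutant libraries still lay above both of wild type. The exception was M7, TRINITY_DN2605_c0_g2. It had 304 and 726 in the EMS-25 libraries and 802 and 569 in UV-715, against 7.67 and 7.15 in wild type. Its sibling had 1441 and 969 in the EMS-25 libraries and 842 and 1011 in UV-715, against 1672 and 1591 in wild type.

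M7 therefore made up 17.4% and 42.8% of its component in the EMS-25 libraries and 48.8% and 36.0% in UV-715, against 0.457% and 0.447% in wild type. The sum of the component was 1720.1 ± 35.2 in the EMS-25 libraries and 1612 ± 44.8 in UV-715, against 1639 ± 57.7 in wild type (SD, n = 2 each), with UV-715 and wild type overlapping and both EMS-25 libraries slightly above the others. The sibling's drop came to 84.0% of the gain of M7 in the EMS-25 libraries and 104% in UV-715. The EMS-25 replicates of M7 differed 2.39-fold while the sums of these libraries were 1745 and 1695, and the difference between the mutants had an interval from -1.53 to 0.48. Whether reads were divided differently between the features was not tested.

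The sibling of M16 stood at 20.8 and 27.0 in the EMS-25 libraries and 12.0 and 43.3 in UV-715, against 63.1 and 61.4 in wild type. In UV-715 replicate 2, where M16 was low, the sibling was high, and M16 held 44.7% of the component, against 85.6% in UV-715 replicate 1. The component sum was 135 ± 0.665 in the EMS-25 libraries and 80.7 ± 3.27 in UV-715, against 62.3 ± 1.18 in wild type, with no overlap between the strains. With the third feature of the cluster, which had 2.86 and 0 in the EMS-25 libraries and 0 in both UV-715 libraries, against 48.1 and 46.8 in wild type, the sum was 137 ± 1.36 in the EMS-25 libraries and 80.7 ± 3.27 in UV-715, against 110 ± 2.16 in wild type. On that scale UV-715 stood below wild type.

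**Figure D4:**
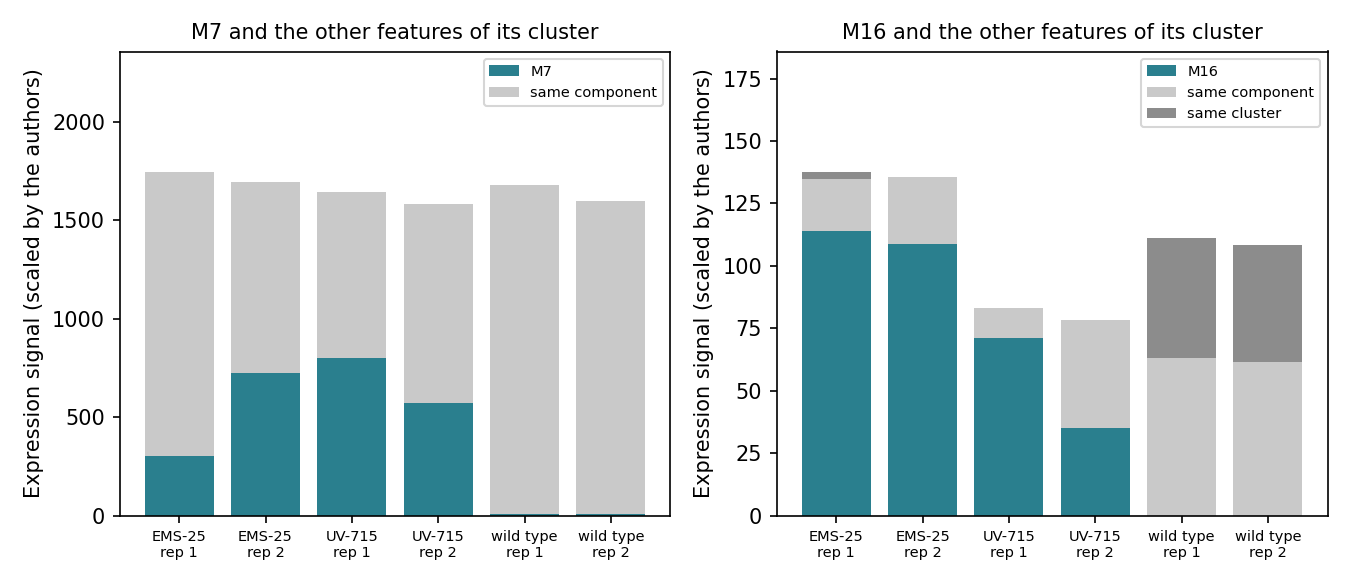
Expression signal (scaled by the authors) in each library of M7 (left) and M16 (right), drawn as stacked bars with the other features of the same assembly component (light grey) and of the same cluster (dark grey). The M7 stacks have nearly the same height in all 6 libraries, while the M16 stacks are highest in EMS-25 and lowest in UV-715.

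For M12, M19 and M22 the other features of the component showed no such exchange. For M12 the sibling had 40.1 ± 5.35 in the EMS-25 libraries and 35.2 ± 1.2 in UV-715, against 38.1 ± 2.4 in wild type, differences within about the spread of the replicates. The siblings of M19 together had 80.9 ± 1.56 in the EMS-25 libraries and 89.4 ± 5.22 in UV-715, against 84.1 ± 3.37 in wild type, and that of M22 had 38.7 ± 3.07 in the EMS-25 libraries and 44.1 ± 3.56 in UV-715, against 35.2 ± 1.89 in wild type (SD, n = 2 each). For M14 the sibling was too uneven to read, at 25.5 and 3.8 in wild type.

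The 12 transcripts with relatives in their cluster had 43 such features between them, with a median level of 18.6. In 11 of the 43 (25.6%) all 4 mutant libraries lay above both of wild type, against 9.75% of all features, and in 6 (14.0%) all lay below, against 10.4%. The ratio of 1.5 was met by 3 (6.98%), against 1.65%. Relatives can share sequence with the transcript that the rule chose, and this contrast is the one that the rule used, so nothing is read from these shares.

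At least 2 relatives with every mutant library above wild type were found in the clusters of M6 (2 of 2), M19 (3 of 16), M20 (2 of 3) and M21 (2 of 3). In the cluster of M19, 2 others lay below wild type in every mutant library and 11 did neither, and in that of M21 the remaining relative lay below. In the cluster of M20, a second feature had 19.4 and 21.999 in the EMS-25 libraries and 32.9 and 23.3 in UV-715, against 9.97 and 4.08 in wild type. Another had 6.86 and 6.61 in the EMS-25 libraries and 4.56 and 4.24 in UV-715 and was listed at 0 in wild type. Both stood in the same direction as M20 and below the limit on level, while the last had 40.8 and 50.9 in the EMS-25 libraries and 33.0 and 38.1 in UV-715, against 49.3 and 50.7 in wild type.

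In the cluster of M6, the second feature had 85.4 and 75.9 in the EMS-25 libraries and 61.2 and 79.6 in UV-715, against 41.1 and 40.8 in wild type, a ratio of 1.488 that fell just short of the rule. The third had 81.1 and 83.4 in the EMS-25 libraries and 73.4 and 72.4 in UV-715, against 58.7 and 60.9 in wild type. All 3 features of this cluster had every mutant library above wild type, and the cluster sum was 591 ± 2.05 in the EMS-25 libraries and 904 ± 11.7 in UV-715, against 271 ± 1.87 in wild type (SD, n = 2 each). It was the only one of the 12 cluster sums that kept the ratio of 1.5. In 9 of the 12 all mutant libraries lay above both of wild type, and M7, M16 and M22 were the exceptions.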

How the data were processed

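Messenger RNA of 6 libraries (3 strains, 2 libraries each) was analysed from a single deposited table. Its values are an expression signal, deposited by the authors after scaling across libraries. RSEM, edgeR, Trimmomatic 0.32 and FastQC 0.11.5 appear in the submitters' processing notes, with no role stated. How the assembly was made, annotated or filtered is not given in the sources used here. The deposited signal is not a count table, so no count model was used.

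For features that reached 1 in 2 or more libraries, log2(signal + 1) was modelled in R 4.3.3 by limma 3.58.1 using an intensity trend. The model held all 6 libraries and no term but strain (residual degrees of freedom 3, prior 2.66), and tests were two-sided. The fit was tested on simulated data. Changes were planted there only in abundant features and were larger than most differences called here, so detection of smaller differences or at low levels was not covered. Python 3.11.15 was used for the rest. IDs were printed for the 2 transcripts with the highest ratio to wild type and, among called ones, the 2 highest and 2 lowest between the mutants. The 22 transcripts, the rule and the tests were chosen with earlier results of these data known. Alternatives covered the pseudocount, filter, scaling, trend, samples in the fit, replicate number as a block, each library left out, and the thresholds of the rule.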

Additional observations from a re-analysis of the deposited data

Results flagged for a closer look

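The effects of EMS-25 and UV-715 differed for 7 of the 22 transcripts by the limma test of the difference between the mutants itself. That is 31.8%, against 4.65% of all features tested and 14.4% of those whose mean reached 30. At a mean of 300 or more, 4 of the 7 transcripts of the group were called (57.1%), against 31.1% of all features at that level. The 22 were chosen for high mutant values, so these shares are a description. M3 (0.76), M12 (0.48) and M17 (1.13) were higher in EMS-25 on the log2 scale, and M1 (-0.62), M5 (-0.99), M6 (-0.83) and M9 (-1.55) were lower. Without the intensity trend in the fit, M9 alone kept its call. M12 lost its call under 9 of the 14 alternatives and M17 under 4, while M1, M3, M5 and M6 lost theirs under no other alternative.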

How the results depend on the processing

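Of the 7 calls between the mutants, 1 (M9) held under all 14 alternatives, and no call changed direction. Without the intensity trend in the limma fit, 1 of the 22 was called and 252 of all features. Leaving out each library in turn gave 5 to 7 calls among the 22, 245 to 743 among all features, and a median difference of the 22 between -0.2244 and -0.0946. The number of transcripts that met the rule was 88 at the looser ratio tried, 8 at a ratio of 2, 82 at a mean of 10 and 9 at a mean of 100. It was 24 to 111 with a library left out. The highest, 111, came when wild type replicate 1 was omitted, and omitting wild type replicate 2 gave 39. Omitting a wild-type library could not lower the number. With libraries set to the same sum it was 23, of which 20 were among the 22. Reading the rule literally, a choice made after seeing the data, gave 23 transcripts and 8 calls. Replicate number was left out of the main model, although replicate 1 was the deeper library in every strain. The deviations of same-numbered libraries had correlations across features of 0.108, 0.144 and -0.08. With replicate number as a block the counts were 7 among the 22 and 712 among all features. The depth of wild type replicate 2 limits the low transcripts, and 2 libraries a strain limit every p-value.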
